A study of Mus musculus with 10 samples.

Results

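Genes of fatty acid oxidation, ketone body synthesis and butyrate use are described here in colon tumors and adjacent normal colon epithelium of mice. The 32 genes were named as a list by their known roles, of 14478 genes tested in all. A probe carried the symbol of 31 of them, and 28 were tested. Acsl5 matched no probe, Slc16a1 and Hadha were not above background on any array, and the probe of Slc25a20 was marked bad on 1 array.

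The study profiled 10 samples of 3 CYP1A-humanized mice, engineered to make human CYP1A enzymes, on oligonucleotide arrays read in 1 colour. The 7 tumors are given in the labels as tubular adenomas with a dominant active Ctnnb1 mutation, and the 3 normal samples as colon epithelium with wild-type Ctnnb1. Tumors and normals came from the same animals, so both had the AIN93M diet, 2 doses of 100 mg/kg PhIP by gavage at 6 weeks of age and 1.5% dextran sulfate sodium (DSS) in the drinking water for 1 week, followed by 8 weeks with no further treatment, and both were 16 weeks old. DSS injures the colon epithelium, and PhIP is a carcinogen found in well-done meat. Mouse 41 (labelled male) and mouse 42 (labelled female) each gave 3 tumors and 1 normal, and mouse 43 (labelled male) gave 1 tumor and 1 normal. The normals had therefore also met the carcinogen and DSS, and since the 7 tumors share 3 animals, p-values measure the spread between these samples.

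On an array, 57.7% to 66.7% of gene probes were above background, and the number of arrays limits the precision (over all genes the tumor minus normal differences had a median SE of 0.11 on the log2 scale). All 11 general epithelial markers were above background on all 10 arrays. Squamous epithelium genes stood apart on 2 arrays: their mean log2 intensity was 10.04 in the tumor of mouse 43 and 10.33 in the normal of mouse 42, while the remaining 8 arrays lay at 7.35 to 8.06. Scan sessions were derived here by splitting the hours of the scans at their widest gap, with the date not used. The arrays of 4 tumors, and of none of the normals, fell in the later session and the rest in the earlier. In tumor 3 of mouse 41 the median log2 difference of the absorptive colonocyte markers from the normal of that mouse was -0.52, against -3.84 to -2.13 in the other 6 tumors. Mouse 42 is labelled female, yet the probe of the Y-linked gene Ddx3y was above background on all 10 arrays and its log2 difference between the tumors of mouse 42 and mouse 41 was -0.02 ± 0.10 (SE, limma adjusted p = 0.944). Sex is therefore given only as labelled, and signal from an X-linked relative was not tested.

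Colonocytes take much of their energy from butyrate, a short-chain fatty acid that gut bacteria release from fibre. Butyrate enters the cell through monocarboxylate carriers, is joined to coenzyme A and is broken down in mitochondria by the same spiral of dehydrogenation, hydration, second dehydrogenation and thiolysis that shortens longer fatty acids. The acetyl-CoA formed is burned in the TCA cycle or turned into ketone bodies. Long fatty acids need the carnitine shuttle to reach the mitochondrion, and very long ones are first shortened in peroxisomes.

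In tumors, 22 of the 28 tested members were lower and 1, Pdk4, was higher (limma, adjusted p under 0.05 over all genes tested, mouse as a block). Over all 14478 genes 23.8% were lower and 25.9% higher by the same rule, 49.7% in either direction. The median log2 difference of the members was -0.69, against 0.0081 over all genes. In 20 of the 22, each of the 7 tumors lay below each of the 3 normals, which 20.1% of all genes did. In 21 of the 22, all 7 tumors lay below the normal of their own mouse, and 16 were lower by over 1.5-fold. The shares of all genes that did so were not counted. A fall of at least 2-fold passed for 8 members (5.44% of all genes), and a rise of at least 2-fold for 1 (5.99%). When spot medians replaced spot means, or in the authors' deposited table, 11 members were lower, and in the earlier scan session alone 13. The members that did not pass were Acsl1, Cpt2, Acot2, Acadl and Acadsb. In whole tissue pieces, fewer cells that express a gene and less RNA of it in each cell cannot be told apart. When both squamous-high arrays were left out, 18 members were lower and 1 higher in a fit that ignored the mouse (2847 and 3019 of all genes). With the mouse as a block, which then compared tumors with a normal in mouse 41 alone, 10 members were lower and 0 higher (1276 and 1232 of all genes by limma). Without tumor 3 of mouse 41, 22 members were lower and 2 higher (3486 and 3874 of all genes).

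**Figure D1:**
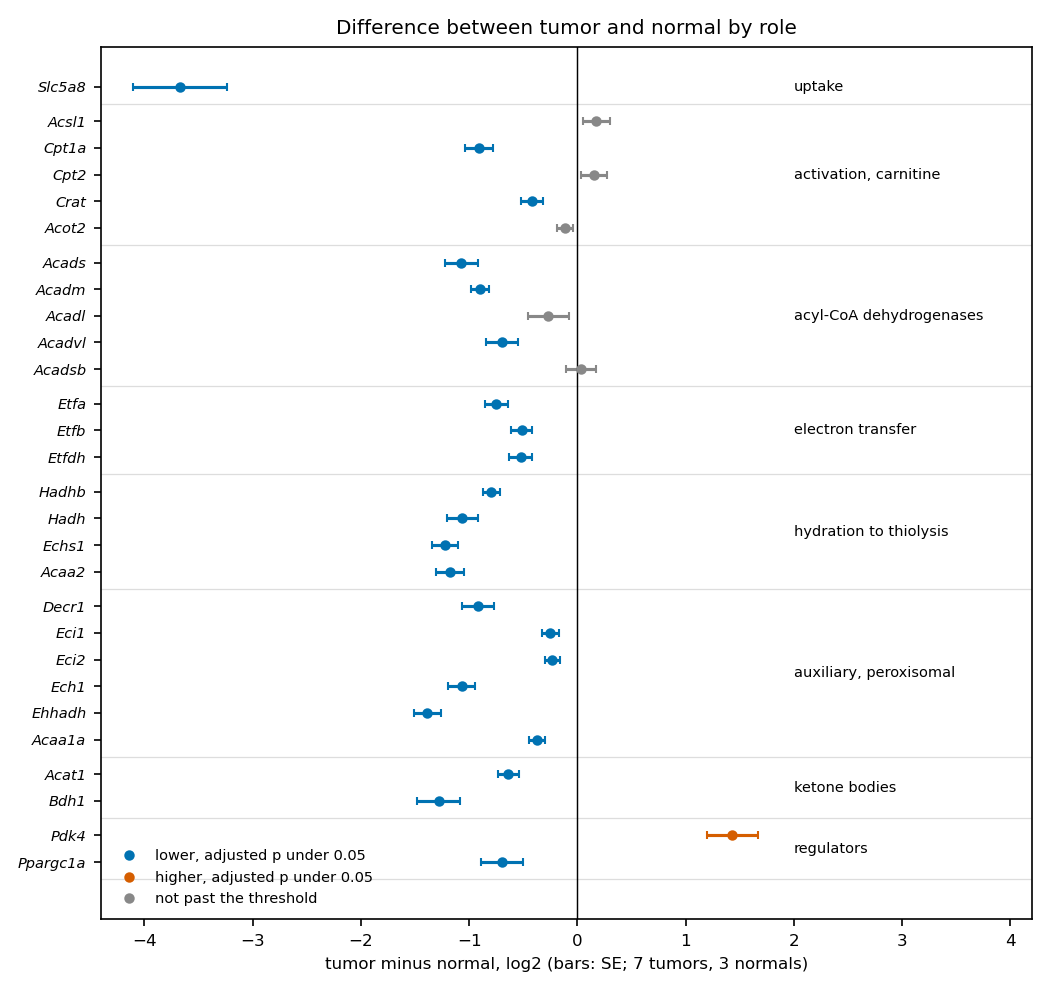
Tumor minus normal difference (log2, x axis) of the 28 tested members (y axis), grouped by role. Points are limma estimates from 7 tumors and 3 normals and bars are SE. Slc5a8 lies farthest left at -3.67, and Pdk4 is the one orange point, at 1.43.

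Promoter sequences are shown for the member with the largest fall (Slc5a8), for 2 lower members that hold a nuclear receptor half-site (Cpt1a and Echs1) and for the member that rose (Pdk4), since PPAR, ERR and HNF4 nuclear receptors are known regulators of this pathway. Each runs from 250 bases before to 50 after the annotated start, 5′ to 3′ on the gene's strand, from RefSeq on GRCm38.p6. Capitals mark AGGTCA or its reverse complement.
Slc5a8, chr10:88885742-88886041, plus strand: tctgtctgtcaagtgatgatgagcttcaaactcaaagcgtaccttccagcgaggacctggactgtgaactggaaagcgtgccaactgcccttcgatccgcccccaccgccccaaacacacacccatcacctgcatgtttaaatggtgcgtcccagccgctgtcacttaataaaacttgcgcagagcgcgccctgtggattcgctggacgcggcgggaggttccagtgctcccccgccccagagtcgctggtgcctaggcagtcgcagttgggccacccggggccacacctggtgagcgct
Cpt1a, chr19:3323051-3323350, plus strand: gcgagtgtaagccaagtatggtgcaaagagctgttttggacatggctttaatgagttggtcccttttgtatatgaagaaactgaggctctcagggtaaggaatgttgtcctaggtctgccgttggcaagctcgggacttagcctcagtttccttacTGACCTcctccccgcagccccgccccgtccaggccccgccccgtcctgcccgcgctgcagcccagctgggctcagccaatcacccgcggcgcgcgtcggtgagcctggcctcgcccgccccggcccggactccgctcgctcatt
Echs1, chr7:140116372-140116671, minus strand: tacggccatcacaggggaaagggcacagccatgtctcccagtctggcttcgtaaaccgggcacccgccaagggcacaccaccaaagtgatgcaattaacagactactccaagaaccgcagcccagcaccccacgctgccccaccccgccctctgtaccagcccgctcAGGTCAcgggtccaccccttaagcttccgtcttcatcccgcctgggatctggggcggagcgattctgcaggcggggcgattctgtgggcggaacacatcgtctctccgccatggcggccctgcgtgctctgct
Pdk4, chr6:5496229-5496528, minus strand: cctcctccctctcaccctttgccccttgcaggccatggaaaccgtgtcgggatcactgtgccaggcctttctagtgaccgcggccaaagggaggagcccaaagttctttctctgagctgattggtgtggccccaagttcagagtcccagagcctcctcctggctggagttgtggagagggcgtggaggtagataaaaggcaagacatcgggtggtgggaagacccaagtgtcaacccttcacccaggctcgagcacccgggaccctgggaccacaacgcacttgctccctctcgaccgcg
The half-site lay 83 to 78 bases before the start in Echs1 and, on the other strand, 94 to 89 bases before the start in Cpt1a. AGGTCA was searched on both strands in the windows of the 28 members that the RefSeq table holds and was found in 4, Acadm, Acadvl, Cpt1a and Echs1 (14.3%), against 18.1% of 27025 genes. Those 28 are not the 28 tested members: they include 18 of the 22 members lower in tumors, and all 4 matches lie among the 18 (22.2%). The longer motif TNAAGGTCA and the direct repeat of AGGTCA with 1 base between the copies, which both contain AGGTCA, and the separate motif CAAAGTCCA were found in 0 of 28, against 1.43%, 0.0481% and 0.555% of genes. The absence of a match says only that these letters are not in this window.

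Butyrate uptake was represented by Slc5a8, the sodium-coupled monocarboxylate transporter of the colonocyte's luminal side. Its log2 intensity was 7.83 at the lowest, 8.53 in the median and 10.04 at the highest of the 7 tumors, against 12.30, 12.39 and 12.07 in the normals of mice 41, 42 and 43. Every tumor lay more than 2 log2 units below every normal. The difference was -3.67 ± 0.43 (SE; 12.7-fold lower, limma adjusted p = 0.000187), which ranked 22 by size among all genes tested. The second Slc5a8 probe gave -3.11 ± 0.30. Tumors 1 and 3 of mouse 41 kept the most signal, at -2.69 and -2.26 from their own normal, whereas tumor 2 of the same mouse was at -4.39. Tumor 2 of mouse 42 was the lowest, at -4.57. Slc16a1 encodes MCT1, the proton-coupled carrier of the same substrate. Its probe read 5.91 to 6.03 in tumors and 5.90 to 6.13 in normals and was not well above background on any of the 10 arrays, so no fold is given. Whether its RNA was low or the probe failed was not tested.

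**Figure D2:**
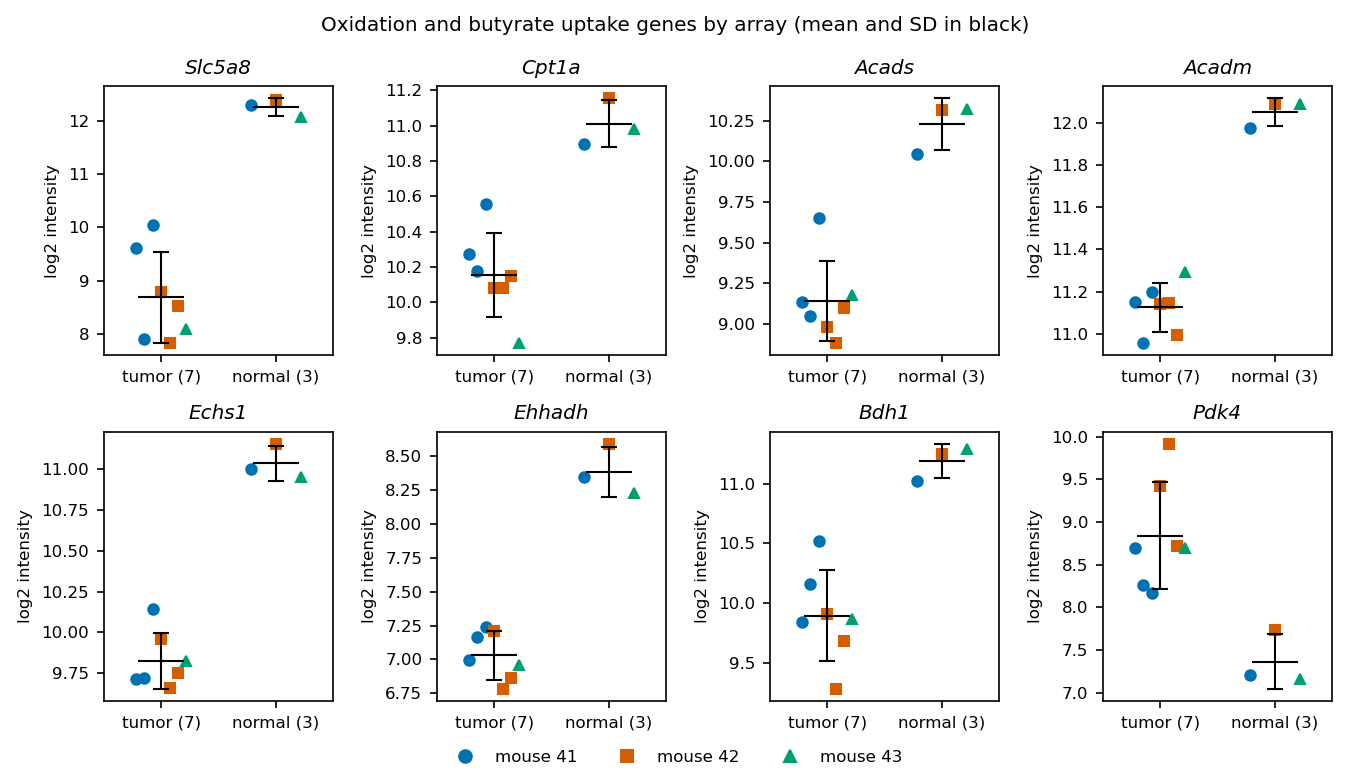
Normalized log2 intensity (y axis) of 8 members on each array, tumors left and normals right. Points are arrays coloured by mouse, and black bars are the mean and SD of the 7 tumors or 3 normals. Tumor and normal points do not overlap in any of the 8 panels, and Pdk4 alone is higher in tumors.

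Activation and the carnitine shuttle were mixed, with 2 of 5 tested members lower, 3 not past the threshold and a median difference of -0.12. Over all genes 23.8% were lower. Cpt1a encodes the outer-membrane carnitine palmitoyltransferase that controls entry of long-chain acyl groups. It ranged from 9.77 through a median of 10.15 to 10.56 in tumors, against 10.90, 11.16 and 10.98 in the normals of mice 41, 42 and 43. No tumor reached the lowest normal, and the tumor of mouse 43 was the lowest of all. The difference was -0.91 ± 0.13 (1.88-fold lower, limma adjusted p = 0.00044). It was -0.71 and missed the threshold in the earlier scan session alone (limma adjusted p = 0.0524), and -0.56 without both squamous-high arrays with the mouse as a block (limma adjusted p = 0.0517). Crat, which moves short acyl groups between carnitine and coenzyme A, ranged from 8.64 through 8.91 to 9.28 in tumors, against 9.02, 9.50 and 9.47 in normals. The groups overlapped because the normal of mouse 41 was low, although each tumor lay below its own normal (difference -0.42 ± 0.10, limma adjusted p = 0.0071). With the spot median the difference of Crat was 0.04 and in the authors' deposited table it was 0.09, neither past the threshold. It also missed the threshold with median scaling (-0.27), in the earlier session (-0.40), without mouse 42 (-0.40, limma adjusted p = 0.0506) and without both squamous-high arrays, mouse ignored (-0.36) or as a block (-0.30).

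Cpt2, the inner-membrane partner of Cpt1a, differed by 0.15 ± 0.12 (limma adjusted p = 0.317, 95% interval -0.12 to 0.42). Acsl1, a long-chain acyl-CoA synthetase, differed by 0.18 ± 0.12 (interval -0.10 to 0.45) and rose only without tumor 3 of mouse 41, the tumor with the lowest Acsl1 (0.24, limma adjusted p = 0.0302). Acot2, a mitochondrial thioesterase with a close paralog in Acot1, differed by -0.12 ± 0.08 (interval -0.28 to 0.05). Whether the probes of these paralogs share signal was not tested. The Acot2 probe was dim, at 6.41 to 6.59 in tumors and 6.49 to 6.71 in normals. The other Acot2 probe was above background on 1 array. Slc25a20, the carrier that passes acylcarnitine across the inner membrane, was left out because its spot was marked bad on the array of tumor 2 of mouse 41. With that spot set to missing, its levels were 8.13 to 8.76 in the other 6 tumors, against 9.12, 9.45 and 9.27 in the normals of mice 41, 42 and 43. All 6 measured tumors lay below their own normal, and the difference over 9 arrays was -0.89 ± 0.14 (1.85-fold lower, limma adjusted p = 0.00116).

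The acyl-CoA dehydrogenases, which open each round of oxidation, were lower in 3 of 5 cases. Acads, Acadm and Acadvl, named for short, medium and very long chains, were lower, and Acadl (long chains) and Acadsb (short branched chains) did not pass. Acadm ranged from 10.96 through 11.15 to 11.29 in tumors, against 11.98, 12.09 and 12.09 in normals. Its 7 tumors lay within a narrow band well below the normals (11.13 ± 0.12, SD, n = 7, against 12.05 ± 0.06, SD, n = 3), and the difference was -0.90 ± 0.08 (1.86-fold lower, limma adjusted p = 5.99e-05). Its second probe gave -0.96 ± 0.08. Acads, whose enzyme oxidizes butyryl-CoA itself, ranged from 8.88 through 9.10 to 9.65 in tumors, against 10.05, 10.32 and 10.32 in normals. Tumor 3 of mouse 41 was the highest tumor, still below every normal, and the difference was -1.07 ± 0.15 (2.11-fold lower, limma adjusted p = 0.00046). Acads missed the threshold with the spot median (-0.59), in the authors' deposited table (-0.69) and in the earlier scan session alone (-0.89, limma adjusted p = 0.054). Acadvl differed by -0.70 ± 0.15 (limma adjusted p = 0.00412). It also missed it with the spot median (-0.73), in the authors' deposited table (-0.94), in the earlier session (-0.57) and without mouse 42 (-0.52, limma adjusted p = 0.0648). Without both squamous-high arrays and with the mouse as a block, Acads (-0.77) and Acadvl (-0.36) both missed the threshold.

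Acadl was spread widely among tumors, from 10.06 in the tumor of mouse 43 through a median of 10.96 to 11.35, against 11.07, 10.87 and 11.02 in normals. Its difference of -0.27 ± 0.19 had an interval of -0.69 to 0.16, and its second probe gave -0.05 ± 0.08. Acadsb differed by 0.03 ± 0.14 (interval -0.29 to 0.35).

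The electrons from these dehydrogenases pass through electron transfer flavoprotein, the product of Etfa and Etfb, and its ubiquinone oxidoreductase Etfdh. All 3 were lower. Etfa ranged from 11.81 through 12.09 to 12.44 in tumors, against 12.86, 12.87 and 12.58 in normals. Tumor 3 of mouse 41 came closest to the normals without reaching them. The difference was -0.75 ± 0.11 (1.68-fold lower, limma adjusted p = 0.000518), and the other 2 kept probes of Etfa gave -0.70 and -0.72. Etfb differed by -0.51 ± 0.10 and Etfdh by -0.52 ± 0.10 (limma adjusted p = 0.00203 and 0.00253), each with no overlap between groups. Etfb missed the threshold with the spot median (-0.45), in the authors' deposited table (-0.68) and in the earlier session (-0.39). Etfb (-0.46) and Etfdh (-0.51) both missed it without both squamous-high arrays with the mouse as a block.

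The later steps of the mitochondrial spiral were lower in all 4 tested members, with a median difference of -1.12. Echs1, the enoyl-CoA hydratase of short chains, ranged from 9.66 through 9.75 to 10.14 in tumors, against 11.00, 11.15 and 10.95 in normals. The highest tumor was again tumor 3 of mouse 41. The difference was -1.22 ± 0.12 (2.33-fold lower, limma adjusted p = 7.38e-05). Hadhb encodes the thiolase subunit of the mitochondrial trifunctional protein. It ranged from 10.59 through 10.69 to 10.84 in tumors, against 11.49, 11.52 and 11.48 in normals. Both groups were tight, with an SD of 0.10 in tumors and 0.02 in normals, and the difference was -0.79 ± 0.08 (1.73-fold lower, limma adjusted p = 8.31e-05). Its partner subunit gene Hadha read 5.89 to 6.05 in tumors and 5.92 to 6.10 in normals, not well above background on any array. For both Bdh1 and Acadsb, 1 probe was also above background on 0 arrays while another was above it on 10. Whether the RNA of Hadha was low or its probe failed was not tested. Hadh, the hydroxyacyl-CoA dehydrogenase of short chains, differed by -1.06 ± 0.14, and Acaa2, the mitochondrial thiolase, by -1.18 ± 0.13. The 3 probes of Acaa2 gave -1.26, -1.11 and -1.18. Hadh missed the threshold with the spot median (-1.05, limma adjusted p = 0.0585).

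The auxiliary and peroxisomal members were all lower, 6 of 6, over a wide span of sizes. Ehhadh, the peroxisomal bifunctional enzyme, ranged from 6.78 through 6.99 to 7.24 in tumors, against 8.34, 8.59 and 8.23 in normals. The highest tumor lay well below the lowest normal, and the difference was -1.39 ± 0.12 (2.61-fold lower, limma adjusted p = 5.04e-05). Ech1, a dienoyl-CoA isomerase, ranged from 11.59 through 11.85 to 12.01 in tumors, against 12.72, 13.12 and 12.81 in normals. The groups were far apart, with a difference of -1.07 ± 0.12 (2.09-fold lower, limma adjusted p = 0.000177). Decr1, the mitochondrial dienoyl-CoA reductase, differed by -0.92 ± 0.15. Acaa1a, a peroxisomal thiolase with the close paralog Acaa1b, differed by -0.37 ± 0.07, but by 0.12 with the spot median and 0.03 in the authors' deposited table, neither past the threshold. Its call was also lost in the earlier session (-0.37) and without both squamous-high arrays, mouse ignored (-0.28) or as a block (-0.38). Ech1 and Decr1 also missed the threshold with the spot median (-0.75 and -0.33) and in the authors' deposited table (-0.93 and -0.42). Decr1 did so too without both squamous-high arrays with the mouse as a block (-0.64).

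The enoyl-CoA isomerases Eci1 and Eci2 moved least among the members that passed, by -0.25 ± 0.08 and -0.23 ± 0.07 (limma adjusted p = 0.0231 and 0.0218). Both missed the threshold without the block for the mouse (-0.22 and -0.20, limma adjusted p = 0.0565 and 0.0588), with median scaling (-0.19 and -0.09), in the authors' deposited table (-0.23 and -0.53), in the earlier scan session (-0.15 and -0.16), with a term for scan session added (-0.18 and -0.19), with averaged tumors (-0.27 and -0.25) and without both squamous-high arrays, mouse ignored (-0.17 and -0.15) or as a block (-0.24 and -0.11). Eci1 was also short of it with the spot median (-0.21) and with plain background subtraction (-0.26). Eci1 also missed it without the normal of mouse 41 (-0.26) and without mouse 42 (-0.30), Eci2 without the normal or the whole of mouse 42 (-0.21), and both without mouse 43 (-0.20 for Eci1 and -0.19 for Eci2).

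Ketone body members were lower. Acat1 encodes the mitochondrial acetoacetyl-CoA thiolase, which works in both making and using ketone bodies. It ranged from 6.13 through 6.36 to 6.56 in tumors, against 6.83, 7.09 and 7.21 in normals. Its probe was dim, above background on 5 of 7 tumor arrays and all 3 normal arrays, and the groups did not overlap (difference -0.64 ± 0.10, limma adjusted p = 0.000617). Bdh1, the dehydrogenase that interconverts acetoacetate and 3-hydroxybutyrate, ranged from 9.28 through 9.87 to 10.52 in tumors, against 11.02, 11.24 and 11.29 in normals. Tumor 2 of mouse 42 was the lowest and tumor 3 of mouse 41 the highest, at -1.96 and -0.51 from their own normals. The difference was -1.28 ± 0.20 (2.43-fold lower, limma adjusted p = 0.000746), and its second probe gave -1.44 ± 0.17. Bdh1 missed the threshold with the spot median (-0.97), in the authors' deposited table (-1.14) and, narrowly, in the earlier scan session alone (-1.15, limma adjusted p = 0.0503). Acat1 (-0.44) and Bdh1 (-0.85) both missed it without both squamous-high arrays with the mouse as a block.

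Both regulators among the members moved, in opposite directions. Pdk4, a pyruvate dehydrogenase kinase that restrains entry of pyruvate into the mitochondrial acetyl-CoA pool, ranged from 8.17 through 8.70 to 9.91 in tumors, against 7.20, 7.74 and 7.16 in normals. Every tumor lay above every normal, as for 21.4% of all genes, with tumors 1 and 2 of mouse 42 highest. The difference was 1.43 ± 0.24 (2.70-fold higher, limma adjusted p = 0.00104). It passed in 31 of 32 other settings, the exception being the fit without both arrays with high squamous genes and with the block for the mouse. Ppargc1a encodes the coactivator PGC-1alpha, which raises transcription of oxidative genes. It ranged from 7.76 through 8.39 to 8.96 in tumors, against 9.14, 9.27 and 8.83 in normals. The tumor of mouse 43 lay 0.12 above its own normal and the other 6 tumors below theirs. The difference was -0.69 ± 0.19 (1.62-fold lower, limma adjusted p = 0.0155). The call was lost without the normal or the whole of mouse 41 (-0.44) or of mouse 42 (-0.62), with the tumors averaged in each mouse (-0.60), with median scaling (-0.52), with the spot median (-0.50) or in the authors' deposited table (-0.60).

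**Figure D3:**
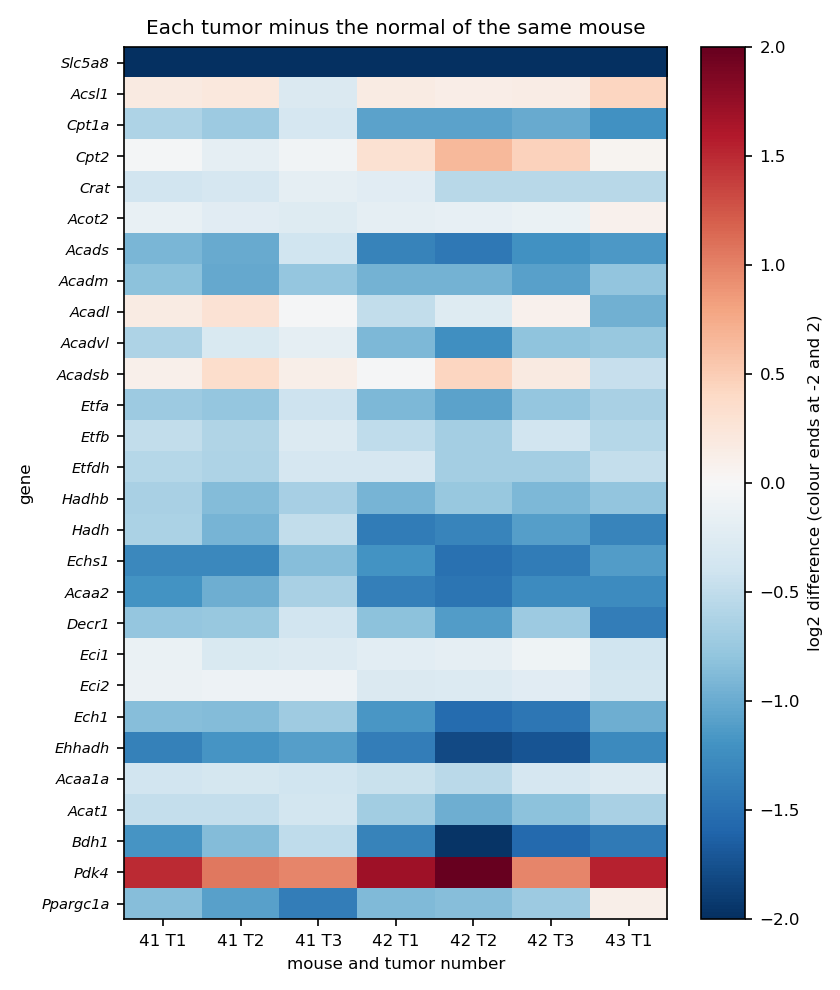
Log2 difference of each tumor from the normal of its own mouse (columns, named by mouse and tumor number) for the 28 tested members (lines of the map, by role). Blue is lower and red higher in the tumor, and the colour ends at -2 and 2, so that Slc5a8 (-4.57 to -2.26) is at its limit. Pdk4 is red in all 7 tumors, and the column of tumor 3 of mouse 41 is the palest.

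The tumors shared the pattern to different degrees. The median difference of the 28 members from the own normal was -0.37 in tumor 3 of mouse 41 and -0.90 to -0.62 in the other 6 tumors. Tumor 3 of mouse 41 was the highest of the 7 tumors for 14 of the 22 lower members, and tumor 2 of mouse 42 the lowest for 11. Between 23 and 26 of the 28 members lay below the own normal in each tumor, and the share of all genes was not counted. The tumors of mouse 42 were compared with those of mouse 41, and 0 members passed the threshold, against 0.221% of all genes (limma). By sign, 9 members were higher and 19 lower in mouse 42, and 6 had an unadjusted p under 0.05 (limma). The shares of all genes by sign and at an unadjusted p were not counted. The size of the tumor minus normal difference in mouse 42 against that in mouse 41 passed for 0 members (limma, 2 at an unadjusted p under 0.05, smallest adjusted p = 0.649), and for 0.394% of all genes. This comparison rests on 1 normal in each mouse, and in it mouse and sex label cannot be told apart. Its share of all genes at an unadjusted p was not counted either.

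Other genes of the same pathways, 79 of them tested, were lower in 45 cases and higher in 12 (23.8% and 25.9% of all genes). Among 21 other genes of mitochondrial oxidation 12 were lower and 3 higher, with a median difference of -0.59. Acsm3, a medium-chain acyl-CoA synthetase that accepts butyrate, ranged from 8.97 through 9.57 to 10.13 in tumors, against 11.95, 11.77 and 11.97 in normals, and was 5.15-fold lower (difference -2.36 ± 0.17, limma adjusted p = 2.54e-05). Acss1, the mitochondrial acetyl-CoA synthetase, was 2.95-fold lower, Echdc3 2.04-fold lower and the carnitine transporter Slc22a5 2.00-fold lower. Cpt1c, the brain-type relative of Cpt1a, ranged from 8.42 through 8.55 to 9.37 in tumors, against 7.42, 7.11 and 7.26 in normals. All 7 tumors lay above all 3 normals (difference 1.42 ± 0.18, limma adjusted p = 0.000237), the opposite direction to Cpt1a, and the muscle-type Cpt1b did not pass (-0.17 ± 0.09). Acsl4, a synthetase that prefers arachidonic acid, was 2.38-fold higher and Echdc2 2.20-fold higher. Acsl4 did not pass with the spot median (1.05), nor did Echdc2 (0.72). Echdc2 also missed the threshold without mouse 42 (0.76), in the authors' deposited table (0.98) and in the earlier session (1.12). Its call was lost too without both squamous-high arrays, with the mouse as a block (0.86).

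In peroxisomes, 11 of 20 other genes were lower and 1 higher, with a median difference of -0.40. Eci3, an isomerase related to Eci2, was 3.77-fold lower and the thioesterases Acot4 and Acot8 were 2.39-fold and 1.63-fold lower. Acot4 was above background in 5 of 7 tumors. Decr2, the peroxisomal relative of Decr1, differed by -0.49 ± 0.09, with the call lost without mouse 42 (-0.46). Acot8 and Decr2 missed the threshold with the spot median (-0.78 and -0.45) and in the authors' deposited table (-0.90 and -0.52), and Acot4 and Decr2 in the earlier session (-1.07 and -0.40). Scp2, a sterol carrier and thiolase, differed by 0.32 ± 0.11 (limma adjusted p = 0.0403). It missed the threshold in most other settings, including without the normal of mouse 42 (0.21).

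Of 8 other ketone body genes 5 were lower and 1 higher. Oxct1, which activates ketone bodies for use, was 1.71-fold lower, and Aacs, the cytosolic acetoacetyl-CoA synthetase, 1.68-fold lower. Oxct1 missed the threshold with the spot median (-0.81) and in the authors' deposited table (-0.91), whereas Aacs passed in all settings run. Hmgcll1, which encodes an extramitochondrial lyase, was 2.02-fold higher (difference 1.02 ± 0.10, limma adjusted p = 6.66e-05).

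Monocarboxylate and short-chain fatty acid genes went both ways, with 3 of 8 lower and 4 higher (23.8% and 25.9% of all genes). Ffar2, a receptor for short-chain fatty acids, ranged from 7.53 through 8.01 to 8.18 in tumors, against 9.81, 10.57 and 9.80 in normals, and was 4.61-fold lower (difference -2.20 ± 0.22, limma adjusted p = 7.93e-05). Acss2, the cytosolic acetyl-CoA synthetase, was 3.26-fold lower, but missed the threshold with the spot median (-1.19). Slc16a7, which encodes MCT2, differed by -0.50 ± 0.10, was above background in 1 of 7 tumors and did not pass without mouse 42 (-0.36), with the spot median (-0.31), in the earlier session (-0.47) or without both squamous-high arrays with the mouse as a block (-0.24). Slc16a3 encodes MCT4, the carrier that exports lactate. It ranged from 8.10 through 8.78 to 9.41 in tumors, against 7.81, 7.78 and 8.12 in normals, and the lowest tumor lay just below the highest normal. The difference was 0.98 ± 0.23 (1.97-fold higher, limma adjusted p = 0.00621). The call was lost with the spot median (0.56) and in the authors' deposited table (0.86). It was also lost without both squamous-high arrays, mouse ignored (0.70) or as a block (0.79). Emb, which encodes the MCT partner protein embigin, was 2.06-fold higher and Slc16a6 1.54-fold higher, both short of the threshold with the spot median (0.89 and 0.52). Slc16a6 also missed it in the authors' deposited table (0.74), with a term for scan session added (0.56) and in the earlier session (0.42). Its call was lost too without both squamous-high arrays with the mouse as a block (0.50). Hcar2, the receptor for butyrate and 3-hydroxybutyrate, differed by 0.93 ± 0.29 (limma adjusted p = 0.0249). The normal of mouse 42 stood at 7.95, within the tumors, and the call of Hcar2 was lost when the normal of mouse 41 (0.74) or all of mouse 43 (0.63) was left out. Hcar2 also missed the threshold with averaged tumors (1.03), with the spot median (0.59), with a term for scan session added (0.90) and in the earlier session (0.74).

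Regulators of oxidation were lower in 11 of 17 cases and higher in 2, with a median difference of -0.61. Ppargc1b, which encodes the PGC-1beta coactivator, ranged from 7.21 through 7.56 to 8.43 in tumors, against 9.69, 10.10 and 9.86 in normals, and was 4.72-fold lower (difference -2.24 ± 0.23, limma adjusted p = 0.000102). It passed in all settings run, unlike Ppargc1a. Esrra, an orphan nuclear receptor that works with these coactivators, was 2.13-fold lower, the mitochondrial deacetylase Sirt3 1.99-fold lower and the kinase Pdk1 1.79-fold lower. These 3 did not pass with the spot median (-0.66, -0.27 and -0.72) or in the authors' deposited table (-0.79, -0.40 and -0.82). The other regulator genes drawn in the plot of families and regulators were picked after their values were seen: Ppard was 2.73-fold lower, Pparg 3.27-fold lower and Hnf4a 1.88-fold lower, and Ppara, not well above background in any tumor, was at least 1.46-fold lower (measured means 6.14 and 6.73 in tumors and normals). With the spot median Ppard (-1.08), Hnf4a (-0.77) and Ppara missed the threshold. In the earlier session Pparg (-1.52) and Hnf4a (-0.70) missed it, as they did without both squamous-high arrays with the mouse as a block (-0.96 and -0.56). Pparg also missed it without mouse 42 (-1.50, limma adjusted p = 0.0534). Angptl4, a lipase inhibitor that fasting and PPARs induce, was 2.45-fold higher (difference 1.29 ± 0.16, limma adjusted p = 0.00023) and passed in all settings run. Pdk2 was 1.58-fold higher, with the call lost in the authors' deposited table (0.74) and without both squamous-high arrays with the mouse as a block (0.44). Pdk3, the remaining pyruvate dehydrogenase kinase, did not pass (-0.22 ± 0.12).

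**Figure D4:**
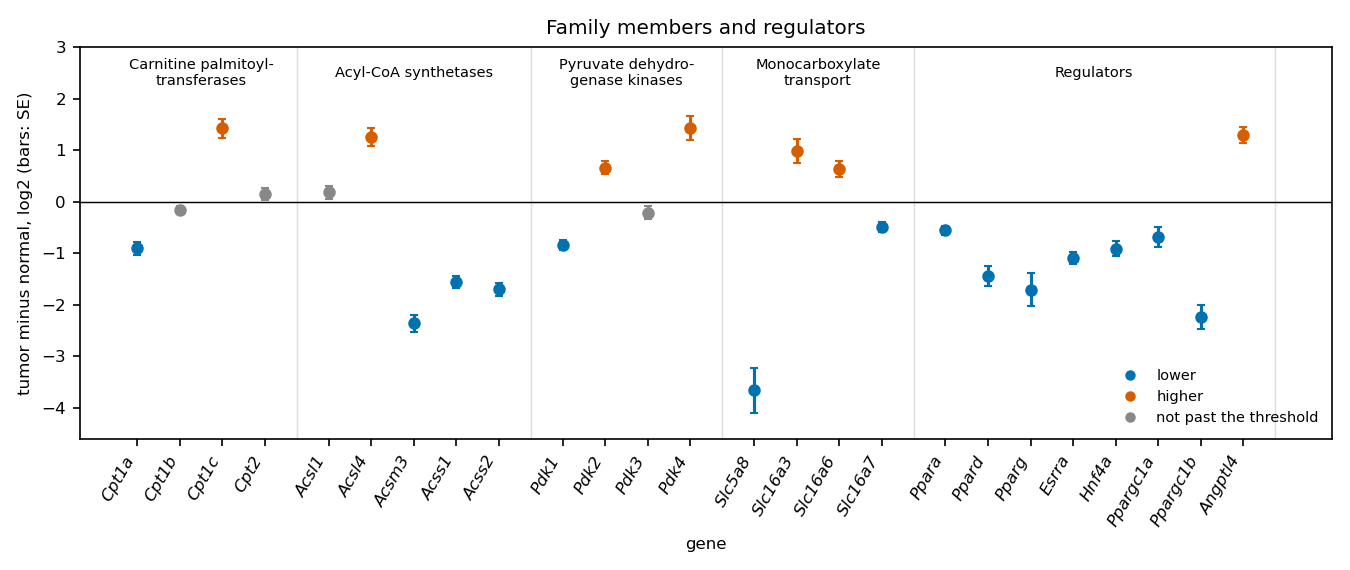
Tumor minus normal difference (log2, y axis) of members and related genes (x axis), grouped by family. Points are limma estimates from 7 tumors and 3 normals and bars are SE, blue lower, orange higher and grey not past the threshold. Cpt1a (-0.91) and Cpt1c (1.42), and Pdk1 (-0.84) and Pdk4 (1.43), lie on opposite sides of 0.

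Cell type markers also differed between tumors and normals, in both directions. Over all genes 23.8% were lower and 25.9% higher by the same rule. Of 9 absorptive colonocyte markers 8 were lower, with a median difference of -2.47, and their mean log2 intensity was 9.49 to 11.76 in tumors, against 12.73 to 13.12 in normals. The anion exchanger Slc26a3 was 25.8-fold lower and the carbonic anhydrase Car4 34.7-fold lower. In tumor 3 of mouse 41, the tumor with the smallest differences of the oxidation members, the absorptive markers also stood nearest to the normal. Of 11 general epithelial markers 6 were lower and 2 higher, with a median of -0.35 and means of 12.46 to 12.97 in tumors, against 12.92 to 12.94 in normals. Single epithelial markers ranged from -2.82 to 2.07. E-cadherin (Cdh1), 1 of the 3 that did not pass, differed by -0.02 ± 0.07 (limma adjusted p = 0.86).

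All 9 fibroblast markers (means 10.14 to 11.44 in tumors, 9.22 to 9.55 in normals), all 7 macrophage and neutrophil markers (10.82 to 11.39 and 8.86 to 9.54) and all 6 endothelial markers (7.81 to 8.37 and 7.12 to 7.61) were higher in tumors. Of 8 smooth muscle markers 5 were lower (7.58 to 8.30 in tumors, 7.93 to 8.85 in normals), and of 11 cell cycle genes 6 were higher. Of 4 tested adipocyte markers 2 were lower (6.49 to 6.72 in tumors, 6.86 to 7.15 in normals), while Adipoq, Plin1, Lep and Ucp1, the defining ones, did not reach the filter on dim probes. Of 10 squamous markers 2 were lower, against 23.8% of all genes. The part of these shifts in the differences of the oxidation genes was not tested.

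**Figure D5:**
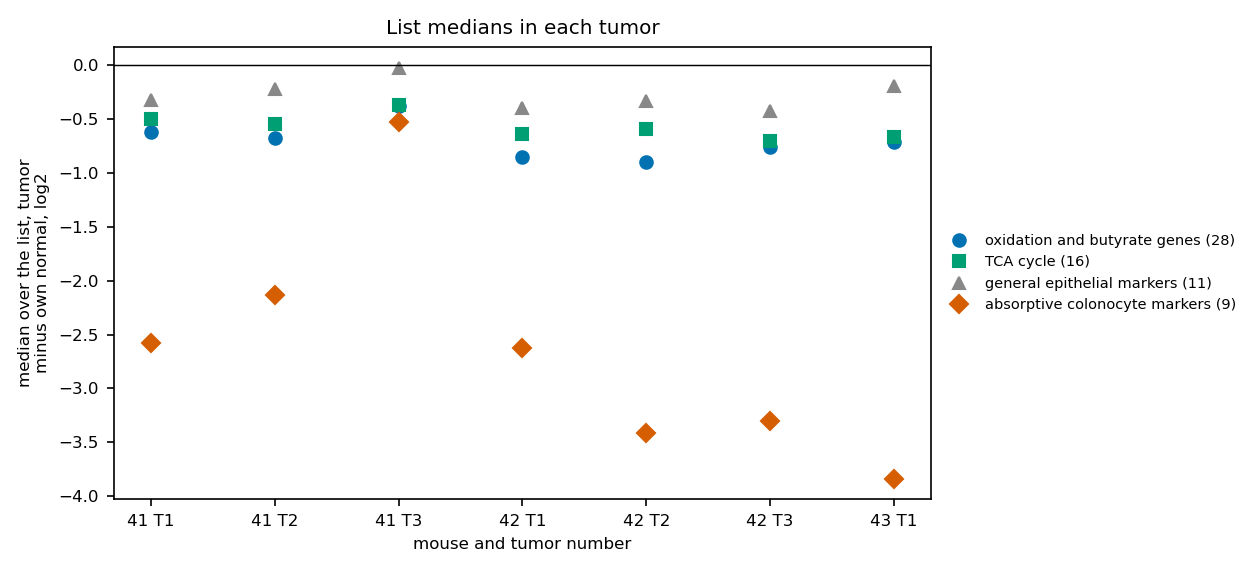
Median over each gene list of the log2 difference of a tumor from the normal of its own mouse (y axis) in the 7 tumors (x axis, mouse and tumor number), with the number of genes per list in the legend. The oxidation and butyrate genes lie at -0.90 to -0.37, the TCA cycle genes at -0.70 to -0.37 and the absorptive markers at -3.84 to -0.52, and all 4 lists are nearest to 0 in tumor 3 of mouse 41.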

How the data were processed

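Per the labels, biotin-labelled cRNA was made from total RNA by T7 amplification, and MEEBO oligonucleotide arrays (38880 spots) were scanned in 1 colour, per the file headers. The deposited scanner files hold linear intensity values, not normalized. The authors' deposited table of intensity values (19327 probes) was matched by the spot median less background, multiplied by a single factor on each array (for at least 99.6% of probes to within 0.1%). Its column medians are 110 to 119, and the sources used here do not state how its probes were selected.

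Spot means were corrected with normexp (offset 50), gene probes were quantile normalized and log2 was taken. A probe had to exceed the 99th percentile of 432 null spots on 3 or more arrays, and the brightest probe stood for its gene, leaving 14478 genes. Left out were 43 probes that the scanner files mark as bad. Symbols came from RefSeq accessions (22987 of 34312 gene probes, 5232 kept the accession, 6093 had none). limma (lmFit, eBayes, mouse as block) with Benjamini-Hochberg adjustment over all genes gave the tests, and a fold is 2 to the power of the log2 difference. Pairing comes from the animals in the labels: deviations of normals and tumors of the same mouse correlated at 0.11, -0.067 and -0.078. The 32 members, the other lists and the rule for naming genes (leaders of each role by adjusted p, fixed members, and up to 4 genes a list with any that rose) were chosen with earlier results of these data known. Some genes of these lists that the naming rule picks are not reported here. The fit was tested on simulated data. Alternatives covered background, scaling, filter, probe choice, block, threshold, scan session and left-out arrays or mice. The settings named beside a gene are not always all in which its call was lost. Those on the marked spots and the squamous arrays were chosen after seeing the data. The fit without tumor 3 of mouse 41 was part of leaving out each array in turn, but was singled out after seeing the data. The fits used limma 3.58.1 in R 4.3.3, and figures matplotlib 3.10.9 in Python 3.11.15.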

Additional observations from a re-analysis of the deposited data

Results flagged for a closer look

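Tumor 3 of mouse 41 stood apart from the other tumors in Acads, the short-chain acyl-CoA dehydrogenase, at a log2 intensity of 9.65 against 8.88 to 9.17 in the other 6 tumors. This was 1 of 28 members examined, and chance sets about 1 in 20 groups apart in this way. The same tumor had the smallest median difference of the oxidation genes and of the absorptive colonocyte markers.

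Cpt2, the inner-membrane carnitine palmitoyltransferase, had tumors on opposite sides of the own normal in 2 animals. This was 1 of 28 members examined, and how often chance gives this was not counted. Its 3 tumors of mouse 42 lay 0.31 to 0.65 above their own normal (mean 0.47) and its 3 tumors of mouse 41 lay below theirs, at -0.17 to -0.04 (mean -0.10). The difference of 0.57 was tested and did not pass (limma adjusted p = 0.649, SE 0.22).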

How the results depend on the processing

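Of the 23 members past the threshold, 7 passed in all 32 alternatives: Slc5a8, Acadm, Etfa, Hadhb, Echs1, Acaa2 and Ehhadh. The median difference of the members stayed between -0.80 and -0.54. Members lower numbered 11 with the spot median (all genes 1358 lower, 1298 higher), 11 in the authors' deposited table (1339 and 1526), 13 in the earlier scan session alone (1585 and 1636) and 10 without both arrays with high squamous genes and with the replicate block (1276 and 1232, 0 members higher). With no replicate block the mouse effect was left out and 20 members were lower and 1 higher (3433 and 3670). With tumors averaged in each mouse 19 members were lower and 1 higher (2483 and 2730 of all genes). Median scaling gave 18 members lower and 1 higher, 2691 genes lower and 4197 higher (60.9% of calls higher, against 52.1%), and a median of 0.066 over all genes. Leaving out 1 array or 1 mouse gave 17 to 22 members lower, 1 to 2 higher (2 without tumor 3 of mouse 41), and 1943 to 3486 genes lower and 2052 to 3874 higher in all, both lowest without mouse 42. Dropping either array of mouse 43 equals dropping that mouse.

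Signs turned for 2 members that had passed: Crat was 0.038 with the spot median and 0.087 in the deposited table, and Acaa1a 0.12 and 0.033. Among members that had not passed, Acsl1 was -0.20 with the spot median and -0.39 in the deposited table, and Acadsb -0.055 and -0.042. Acadsb was also -0.022 with averaged tumors, and -0.067 to 0.19 with 1 array or mouse left out. Cpt2 was -0.038 to 0.30 with 1 array or mouse left out, lowest when mouse 42 or its normal was dropped, and -0.097 without both squamous arrays with the block, where Acadl was 0.14. Acadl was 0.079 in the earlier session. The cause of these shifts was not tested, except that several settings hold fewer arrays.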

Other observations

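TCA cycle genes, which receive the acetyl-CoA of fatty acid oxidation, were lower in tumors in 13 of 16 tested cases and higher in 0 (limma adjusted p under 0.05, against 23.8% of all genes lower), with a median log2 difference of -0.61. The succinate dehydrogenase subunit gene Sdhd differed by -0.80 ± 0.09 (limma adjusted p = 0.000118) and citrate synthase, Cs, by -0.82 ± 0.11. Dlst, a subunit of the oxoglutarate dehydrogenase complex, differed by -0.63 ± 0.09. Idh3a, Idh3g and Mdh2 did not pass, at 0.21, -0.24 and 0.03. Sdhd missed the threshold with the spot median (-0.52) and in the authors' deposited table (-0.68), and Dlst in the earlier scan session (-0.56).

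Of 5 other tested acyl-CoA thioesterases 3 were lower and 1 higher. Acot13 differed by -0.40 ± 0.09, Acot7 by -0.47 ± 0.11 and Acot11 by -0.49 ± 0.15. Acot12 was not well above background in any normal and was at least 1.12-fold higher in tumors (above background in 5 of 7 tumors). All 4 missed the threshold with the spot median. Acot7 did so without mouse 42 (-0.51), Acot11 without the normal of mouse 41 (-0.42) and without mouse 43 (-0.36), Acot13 without the normal of mouse 41 (-0.32) and without mouse 42 (-0.45), and Acot12 without the normal of mouse 42 and without mouse 43.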
